A study of Homo sapiens with 24 samples.

Results

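The 9 genes described here encode host factors that hepatitis C virus (HCV) uses to enter liver cells: CD81, SCARB1, CLDN1, OCLN, NPC1L1, EGFR, EPHA2, TFRC and APOE. They were chosen by name, and each was read from its probe set with the highest mean, among 18275 rows measured in all. Of the 9 genes, 8 had a probe set annotated with that gene alone, and OCLN shared its probe set with the pseudogene OCLNP1, so their signals cannot be told apart and the row is written OCLN/OCLNP1. The cells were Huh7.5.1, a human hepatoma line derived from Huh7 and known for supporting HCV infection, and every array came from cultures without virus. The groups were silymarin for 4 h (4 arrays), DMSO for 4 h (4 arrays), silymarin for 8 h (3 arrays), DMSO for 8 h (5 arrays), silymarin for 24 h (3 arrays) and DMSO for 24 h (5 arrays). Silymarin is an extract of milk thistle seeds, and DMSO is its solvent. The sources used here give no concentration. The labels number the samples of a group without saying that they were separate cultures, so the p-values measure the spread between these samples, which may be technical. One cell line was used, so no other hepatocyte source bears on these values.

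HCV circulates bound to lipoproteins, and apolipoprotein E on the particle helps it attach to the hepatocyte surface. The particle then meets scavenger receptor class B member 1 (SCARB1) and the tetraspanin CD81, moves with CD81 to the tight junction proteins claudin-1 and occludin, and is taken up through clathrin-coated pits. The kinases EGFR and EPHA2 help CD81 and claudin-1 associate, and the cholesterol transporter NPC1L1 and the transferrin receptor TFRC have been described as further entry factors.

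All values are log2 expression values, so a difference of 1 is a 2-fold difference, and levels of the entry factors are not compared with each other, since they come from different probe sets. Array medians lay between 7.04 and 7.18. The 10 measured hepatocyte markers of 11 all lay above the median gene of 7.90, with albumin at 13.34. Below 6.27, the lower quartile of all genes, lay 4 of 5 endothelial markers, 2 of 5 leukocyte, 2 of 5 fibroblast and 1 of 4 cholangiocyte markers. The leukocyte markers ran from PTPRC at 4.33 to LYZ at 12.29, the fibroblast markers from DCN at 3.82 to COL1A1 at 7.77, and the cholangiocyte markers from CFTR at 4.47 to SOX9 at 10.40. These levels are of different probe sets and place the markers only roughly. The arrays fell into separate ranges of DDIT4, a stress-induced inhibitor of the mTORC1 kinase: 10 arrays lay at 9.67 or more and 14 at 8.35 or less, with none between. DDIT4 was in the high range on 1 of 4 silymarin and 2 of 4 DMSO arrays at 4 h, on 2 of 3 silymarin and 3 of 5 DMSO arrays at 8 h, and on 1 of 3 silymarin and 1 of 5 DMSO arrays at 24 h, or 4 of 10 silymarin and 6 of 14 DMSO arrays in all. The averaged differences of EPHA2, SCARB1, NPC1L1, TFRC and OCLN/OCLNP1 are also given without those 10 arrays. The arrays measured whole cultures, so fewer cells that express a gene and less of its RNA per cell cannot be told apart.

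CD81 is the tetraspanin that binds the viral glycoprotein E2. Its level was among the steadiest of the 9: the SD within groups was 0.084, at the 12.5th percentile of all rows, and all 24 arrays lay between 11.47 and 11.77. At 4 h CD81 was 11.56, 11.54, 11.53 and 11.51 on the silymarin arrays, against 11.67, 11.50, 11.76 and 11.57 on the DMSO arrays. The silymarin arrays lay close together and inside the range of the DMSO arrays. The group means ran from 11.53 in silymarin at 4 h to 11.62 in DMSO at 4 h.

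SCARB1, the receptor for high-density lipoprotein, averaged 10.81 ± 0.075 with silymarin and 10.70 ± 0.15 with DMSO at 4 h (SD, n = 4 each). At 8 h SCARB1 was 10.88, 10.81 and 10.65 on the silymarin arrays, against 10.52, 10.74, 10.75, 10.45 and 10.67 on the DMSO arrays. Both DMSO arrays below 10.6 at 8 h, like the DMSO array at 10.48 at 4 h, were arrays with DDIT4 in its high range. At 24 h SCARB1 averaged 10.80 ± 0.11 with silymarin (SD, n = 3) and 10.77 ± 0.10 with DMSO (SD, n = 5), and the groups overlapped at every time.

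CLDN1, or claudin-1, forms the tight junction strands and is the partner of CD81 in entry. It had the smallest spread within groups of the 9, an SD of 0.071 at the 5.93rd percentile of all rows. At 4 h CLDN1 was 12.82, 13.05, 12.92 and 12.83 on the silymarin arrays, against 12.78, 12.87, 12.85 and 12.77 on the DMSO arrays. The second silymarin array at 4 h was the highest of all 24, and the first DMSO array at 24 h, at 12.73, was the lowest.

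OCLN encodes occludin, the last of the main receptors in the entry sequence. At 8 h the OCLN/OCLNP1 probe set was 10.22, 10.23 and 10.17 on the silymarin arrays, against 10.38, 10.24, 10.38, 10.49 and 10.34 on the DMSO arrays. Every silymarin array was below every DMSO array, although the highest silymarin array at 10.2338 and the lowest DMSO array at 10.2388 nearly met. OCLN/OCLNP1 was the only member row whose groups did not overlap at 8 h, where 2.94% of all 18275 rows had no overlap, and 0 of the 9 had none at 4 h, where 2.18% had none, or at 24 h, where 1.95% had none. At 4 h OCLN/OCLNP1 averaged 10.25 ± 0.095 with silymarin and 10.24 ± 0.15 with DMSO (SD, n = 4 each), and at 24 h it averaged 10.19 ± 0.021 with silymarin (SD, n = 3) and 10.23 ± 0.14 with DMSO (SD, n = 5).

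EGFR is a receptor tyrosine kinase whose signalling promotes the association of CD81 with claudin-1. At 4 h EGFR was 10.58, 10.56, 10.52 and 10.40 on the silymarin arrays, against 10.38, 10.43, 10.40 and 10.39 on the DMSO arrays. Of the 4 silymarin arrays, 3 lay above all the DMSO arrays at 4 h. At 8 h EGFR was 10.44, 10.39 and 10.30 on the silymarin arrays, against 10.36, 10.49, 10.57, 10.56 and 10.48 on the DMSO arrays, so the silymarin arrays lay in the lower part of the range at that time. At 24 h it averaged 10.59 ± 0.13 with silymarin (SD, n = 3) and 10.54 ± 0.16 with DMSO (SD, n = 5).

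EPHA2 is a receptor tyrosine kinase for ephrin A ligands that acts beside EGFR in entry. It varied most of the 9: its range over 24 arrays was 1.06, a 2.09-fold range, and its SD within groups was 0.23, at the 93.5th percentile of all rows. At 4 h EPHA2 was 9.95, 10.34, 10.16 and 9.78 on the silymarin arrays, against 9.46, 9.84, 9.88 and 9.95 on the DMSO arrays. At 8 h it was 9.93, 9.93 and 9.76 on the silymarin arrays, against 9.48, 9.88, 10.01, 9.28 and 9.70 on the DMSO arrays. At 24 h it was 9.88, 10.26 and 10.33 on the silymarin arrays, against 9.68, 10.18, 9.97, 9.97 and 9.83 on the DMSO arrays. Silymarin arrays lay higher on average at each time, with overlap at each time, and the 3 lowest arrays were all DMSO arrays with DDIT4 in its high range. The sequence just before the EPHA2 start site is shown because EPHA2 had the largest differences of the 9, with the GC box (GGGCGG, the binding motif of SP1) in capitals.
EPHA2, chr1:16156070-16156319, minus strand, GRCh38.p14: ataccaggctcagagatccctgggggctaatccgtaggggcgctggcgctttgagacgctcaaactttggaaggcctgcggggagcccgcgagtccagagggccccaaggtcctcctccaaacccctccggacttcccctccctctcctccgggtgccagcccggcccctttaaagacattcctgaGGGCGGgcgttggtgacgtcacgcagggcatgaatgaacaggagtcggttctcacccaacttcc
This window of 250 bases, from RefSeq, held 1 GC box, starting 64 bases before the start site, and 42.6% of 35116 promoters of the same length held one on either strand.

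NPC1L1 is the cholesterol uptake transporter that ezetimibe blocks. It had the second highest spread within groups, an SD of 0.19 at the 87.9th percentile of all rows. At 8 h NPC1L1 was 8.30, 8.33 and 8.07 on the silymarin arrays, against 7.97, 8.41, 8.20, 7.78 and 7.96 on the DMSO arrays. The silymarin arrays lay inside the range of the DMSO arrays at 8 h. At 4 h NPC1L1 averaged 8.23 ± 0.044 with silymarin and 8.13 ± 0.23 with DMSO (SD, n = 4 each), and at 24 h it averaged 8.22 ± 0.092 with silymarin (SD, n = 3) and 8.16 ± 0.22 with DMSO (SD, n = 5). The sequence before its start site is shown because NPC1L1 followed EPHA2 across arrays with high DDIT4, as given below, with an AP-1 site (TGANTCA, where N is any base) in capitals.
NPC1L1, chr7:44541331-44541580, minus strand, GRCh38.p14: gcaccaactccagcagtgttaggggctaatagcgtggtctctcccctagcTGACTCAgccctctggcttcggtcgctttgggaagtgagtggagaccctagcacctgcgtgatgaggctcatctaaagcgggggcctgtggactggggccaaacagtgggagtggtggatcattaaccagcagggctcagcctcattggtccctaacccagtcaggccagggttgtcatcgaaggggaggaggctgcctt
The NPC1L1 window held 1 AP-1 site, starting 200 bases before the start site, and no GC box, and 6.57% of the 35116 promoters held an AP-1 site.

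TFRC takes up transferrin-bound iron. At 8 h TFRC was 11.50, 11.42 and 11.47 on the silymarin arrays, against 11.63, 11.46, 11.18, 11.85 and 11.63 on the DMSO arrays. The DMSO arrays at 8 h included the lowest and the highest TFRC values of all 24 arrays. At 4 h it averaged 11.48 ± 0.049 with silymarin and 11.51 ± 0.17 with DMSO (SD, n = 4 each), and at 24 h it averaged 11.46 ± 0.19 with silymarin (SD, n = 3) and 11.44 ± 0.086 with DMSO (SD, n = 5). The window before the TFRC start site is shown because TFRC ran opposite to EPHA2 and NPC1L1 across the same arrays, with GC boxes of either strand in capitals (CCGCCC on the strand shown is GGGCGG on the other).
TFRC, chr3:196082091-196082340, minus strand, GRCh38.p14: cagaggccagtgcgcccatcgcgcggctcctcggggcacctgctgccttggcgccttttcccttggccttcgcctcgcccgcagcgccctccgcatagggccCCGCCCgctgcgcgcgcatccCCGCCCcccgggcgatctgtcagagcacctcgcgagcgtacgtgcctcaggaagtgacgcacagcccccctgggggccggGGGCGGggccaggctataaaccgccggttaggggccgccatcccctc
The TFRC window held 3 GC boxes, starting 148, 127 and 47 bases before the start site. None of the EPHA2, NPC1L1 and TFRC windows held the core of the C/EBP-ATF response element (TGATGNAA, in 3.14% of promoters). None held the core of a sterol regulatory element (TCACNCCAC, in 0.883%), and each core was searched on both strands. No motifs other than GC boxes, AP-1 sites and these cores were searched, so other sites of ATF factors were not counted.

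APOE encodes the apolipoprotein carried on the virus particle. At 8 h APOE was 12.04, 11.91 and 12.00 on the silymarin arrays, against 12.08, 11.94, 11.79, 12.18 and 12.06 on the DMSO arrays. At 24 h it was 12.15, 11.85 and 11.67 on the silymarin arrays, against 11.76, 11.87, 11.96, 11.86 and 11.97 on the DMSO arrays. The silymarin arrays at 24 h spanned nearly the whole range seen over 24 arrays. At 4 h APOE averaged 11.87 ± 0.11 with silymarin and 11.93 ± 0.11 with DMSO (SD, n = 4 each).

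**Figure D1:**
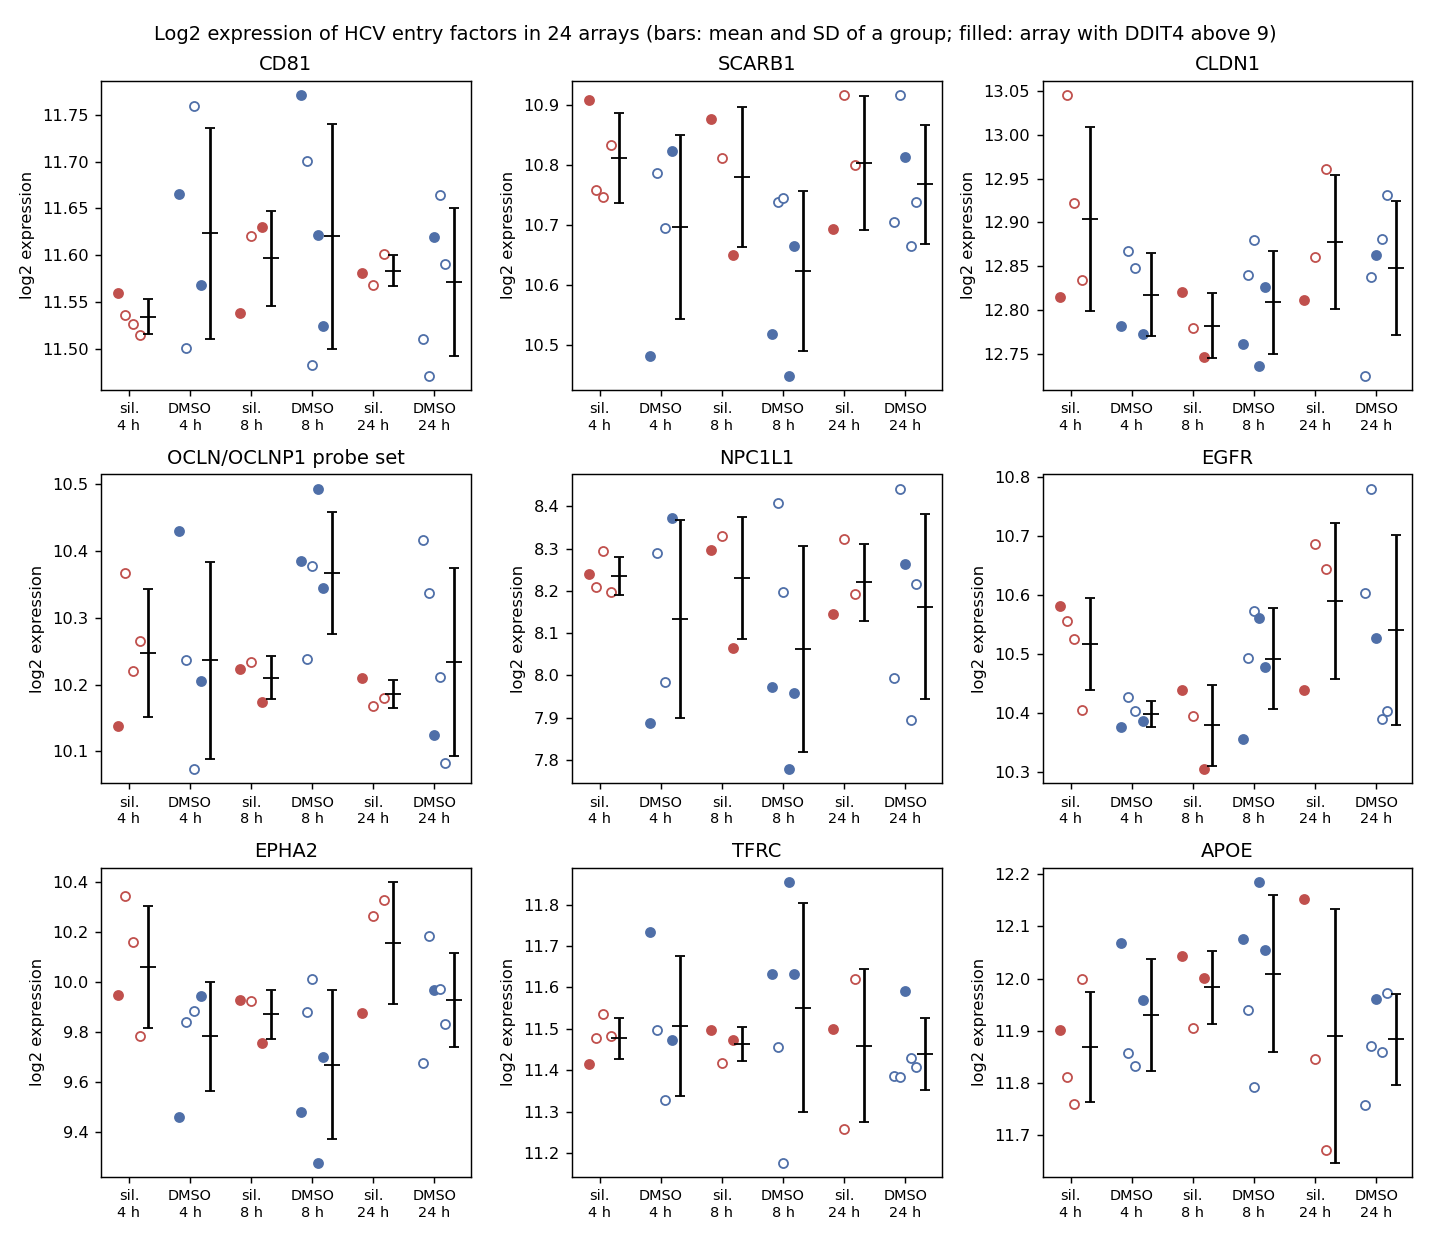
Log2 expression (y axis) of each of the 9 entry factors on 24 arrays, by group (x axis, red silymarin, blue DMSO), with the group mean and SD as bars and filled points for the 10 arrays with DDIT4 above 9. EPHA2 spans 9.28 to 10.34, and its 3 lowest points are filled DMSO points.

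The order of the 6 group means was set beside the spread within groups. For 8 of the 9 genes, every step between neighbouring group means was smaller than that gene's SD within groups, so neighbours in the order did not differ beyond their spread. For OCLN/OCLNP1 the step from silymarin at 4 h up to DMSO at 8 h was 0.12, against an SD of 0.11. DMSO at 8 h had the lowest mean of SCARB1, NPC1L1 and EPHA2 and the highest of OCLN/OCLNP1, TFRC and APOE. Differences between groups made up 39.5% of the variance of EPHA2 over the 24 arrays, 37.1% of that of EGFR, 31.9% of that of SCARB1 and 7.74% of that of TFRC, against a median of 23.2% over all rows. In limma's moderated F-test over the 6 groups, EPHA2 had an F of 2.81 and a Benjamini-Hochberg adjusted p of 0.67. It was the only one of the 9 genes under an unadjusted p of 0.05 in that F-test, as were 7.2% of all rows, and 0% passed an adjusted p of 0.05.

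Silymarin was compared with its solvent at each time, in cells that had met no virus. None of the 9 genes passed limma's adjusted p of 0.05 at 4, 8 or 24 h or averaged over the 3 times, and neither did any of the 18275 rows (0% called in each comparison). An unadjusted p under 0.05 was reached by 453 rows at 4 h, 719 at 8 h, 553 at 24 h and 518 in the average. EPHA2 had the largest mean difference, 0.28 higher with silymarin at 4 h (SE 0.15), 0.20 at 8 h (SE 0.15) and 0.23 at 24 h (SE 0.15). Averaged over the 3 times EPHA2 was 0.24 higher on the log2 scale, or 1.18-fold (95% confidence interval 0.054 to 0.42, limma unadjusted p = 0.0133, adjusted p = 1.00). SCARB1 was 0.12 higher with silymarin at 4 h, 0.16 at 8 h and 0.036 at 24 h, and averaged 0.10 higher (interval 0.0011 to 0.20, limma unadjusted p = 0.0477, adjusted p = 1.00). These 2 of 9 genes had an unadjusted p under 0.05 in the average, as 2.83% of all rows did. The count is a description only, since the genes were chosen with results of these arrays known and EPHA2 and SCARB1 varied together across arrays.

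Setting aside the 10 arrays with high DDIT4 left 3 silymarin and 2 DMSO arrays at 4 h, 1 silymarin and 2 DMSO arrays at 8 h, and 2 silymarin and 4 DMSO arrays at 24 h. The lone silymarin array at 8 h was assumed to vary like the other groups. On these 14 arrays EPHA2 averaged 0.20 higher with silymarin (SE 0.096, adjusted p = 1.00), with a difference of 0.23 at 4 h and of 0.38 at 24 h. The EPHA2 difference of -0.02 at 8 h, which enters that average, rests on the 1 silymarin array. SCARB1 averaged 0.071 higher on the 14 arrays (SE 0.054), with a difference of 0.039 at 4 h and of 0.10 at 24 h. The averaged difference there was 0.081 for NPC1L1 (SE 0.090), 0.075 for TFRC (SE 0.068) and -0.011 for OCLN/OCLNP1 (SE 0.064), against 0.11, -0.033 and -0.065 over all 24 arrays. Without the fourth DMSO array at 8 h the EPHA2 difference at 8 h was 0.10, and without the first DMSO array at 4 h that at 4 h was 0.17. Without the third silymarin array at 24 h the EPHA2 difference at 24 h was 0.14, and without the first it was 0.37. For SCARB1 the difference at 4 h was 0.044 without the first DMSO array. The part of DDIT4 in these differences beyond those values was not tested.

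OCLN/OCLNP1 was 0.16 lower with silymarin at 8 h (SE 0.080, interval -0.32 to 0.0084, limma adjusted p = 0.99). Without the 10 arrays with high DDIT4 that difference was -0.074, and it rests on 1 silymarin array. EGFR was 0.12 higher with silymarin at 4 h (SE 0.076) and 0.11 lower at 8 h (SE 0.078). The silymarin effect on EGFR at 8 h minus that at 4 h was -0.23 (SE 0.11, limma unadjusted p = 0.0449, adjusted p = 1.00), and EGFR was the only one of the 9 with an unadjusted p under 0.05 there, where 2.37% of all rows had one and 0% passed the adjusted threshold. NPC1L1 was 0.10, 0.17 and 0.057 higher with silymarin at 4, 8 and 24 h. Its difference was 0.020 at 4 h without the first DMSO array, 0.097 at 8 h without the fourth DMSO array, and -0.0095 at 24 h without the fourth DMSO array. TFRC was 0.088 lower with silymarin at 8 h, 0.012 lower without the fourth DMSO array and 0.18 lower without the third. CD81, CLDN1 and APOE differed by no more than 0.089 at any time. The silymarin effect at 24 h was also set against those at 8 h and at 4 h, and there 0 of the 9 had an unadjusted p under 0.05 and 0% of all rows passed, with 746 rows (against 8 h) and 551 rows (against 4 h) under an unadjusted p of 0.05.

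The confidence intervals bound what these arrays allow. Over the 3 times, the lowest and highest 95% bounds for silymarin over DMSO were 0.856-fold and 1.11-fold for CD81, 0.90-fold and 1.16-fold for CLDN1, and 0.841-fold and 1.15-fold for APOE. For SCARB1 they were 0.906-fold and 1.26-fold, and for OCLN/OCLNP1 0.80-fold and 1.13-fold. For EGFR they were 0.826-fold and 1.21-fold, and for TFRC 0.804-fold and 1.19-fold. The widest were those of NPC1L1, 0.864-fold and 1.35-fold, and EPHA2, 0.922-fold and 1.499-fold. A 2-fold difference in either direction thus lay outside the interval of each of the 9 at each time.

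**Figure D2:**
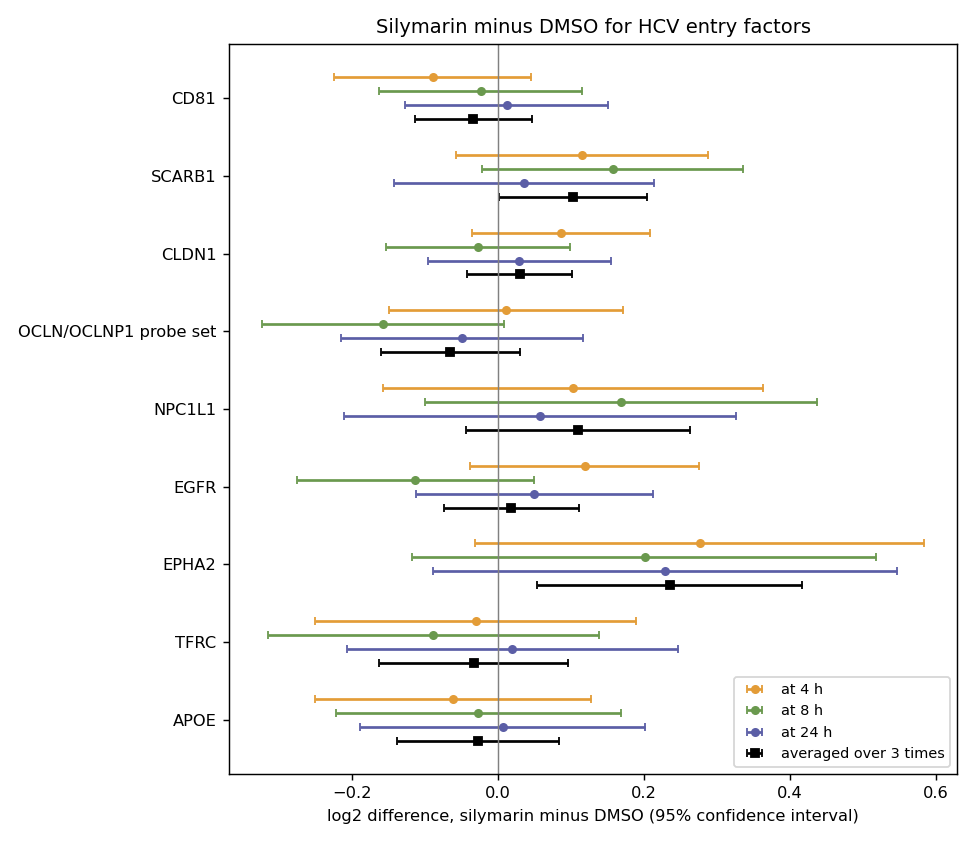
Log2 difference, silymarin minus DMSO (x axis), for each entry factor (y axis) at 4, 8 and 24 h (circles) and averaged over the 3 times (squares), with 95% confidence intervals from limma. The EPHA2 point lies to the right of 0 at each time, but its interval at each single time includes 0. The averaged intervals of SCARB1 and EPHA2 lie above 0 before adjustment.

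Time in DMSO alone gave differences of similar size. None of the 9 and 0% of all rows passed the adjusted threshold for DMSO at 8 h against 4 h (1188 rows with an unadjusted p under 0.05), at 24 h against 4 h (310 rows) or at 24 h against 8 h (1996 rows). Between 24 h and 8 h, EPHA2 was 0.26 higher at 24 h (SE 0.13), SCARB1 0.145 higher (SE 0.075) and OCLN/OCLNP1 0.13 lower (SE 0.069), with limma adjusted p of 0.47 for each. EGFR was 0.14 higher at 24 h than at 4 h in DMSO (SE 0.072, limma adjusted p = 1.00). The comparison of 24 h with 8 h shares the DMSO arrays at 8 h with the silymarin comparison at that time, and 3 of those 5 arrays had high DDIT4.

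Across arrays, several entry factors varied together. The fourth DMSO array at 8 h had the lowest SCARB1, NPC1L1 and EPHA2 of all 24 arrays and the highest OCLN/OCLNP1, TFRC and APOE. Since the arrays fall into separate DDIT4 ranges, correlations were taken within each range, over the 36 pairs of the 9 genes, on values from which group means were not taken away, so differences between groups enter them. They are descriptions of arrays that share their hybridisation platform and normalization. Across the 10 arrays with high DDIT4, SCARB1 and EPHA2 had a Pearson r of 0.947 (Spearman rho 0.903), NPC1L1 and EPHA2 an r of 0.94 (rho 0.891), and SCARB1 and NPC1L1 an r of 0.928 (rho 0.879). OCLN/OCLNP1 and TFRC had an r of 0.889 (rho 0.782), OCLN/OCLNP1 and APOE 0.72 (rho 0.806), and TFRC and APOE 0.669 (rho 0.782). SCARB1, NPC1L1 and EPHA2 thus ran together across these arrays, as did OCLN/OCLNP1, TFRC and APOE. These trios were picked out after their values were seen. CLDN1 also ran with the first trio there, less closely, with an r of 0.665 for EPHA2, 0.641 for SCARB1 and 0.519 for NPC1L1. Without the 3 arrays lowest in EPHA2, CLDN1 and EPHA2 had an r of 0.324 on 7 arrays with high DDIT4. Across the 14 arrays with low DDIT4 they had an r of 0.681 (rho 0.556).

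Between the trios the 9 pairs had an r between -0.943 and -0.678 on the 10 arrays with high DDIT4, with -0.943 for EPHA2 and OCLN/OCLNP1 and -0.88 for EPHA2 and TFRC. On the 14 arrays with low DDIT4 the same 9 pairs had an r between -0.488 and 0.248, and the 6 pairs within the trios between -0.232 and 0.71. Of those 6, SCARB1 and NPC1L1 had the r of 0.71 (rho 0.582) on the arrays with low DDIT4. Whether the correlations differ between the DDIT4 ranges was not tested. Without the 3 DMSO arrays lowest in EPHA2, 7 arrays with high DDIT4 remained. There r was 0.931 for NPC1L1 and EPHA2, 0.845 for SCARB1 and EPHA2, and 0.816 for SCARB1 and NPC1L1. It fell further in the other trio, to 0.549 for OCLN/OCLNP1 and TFRC, 0.534 for OCLN/OCLNP1 and APOE, and 0.332 for TFRC and APOE. Between the trios r lay between -0.701 and -0.404 on the 7 arrays. Much of the size in that other trio and between the trios thus rests on the 3 arrays.

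**Figure D3:**
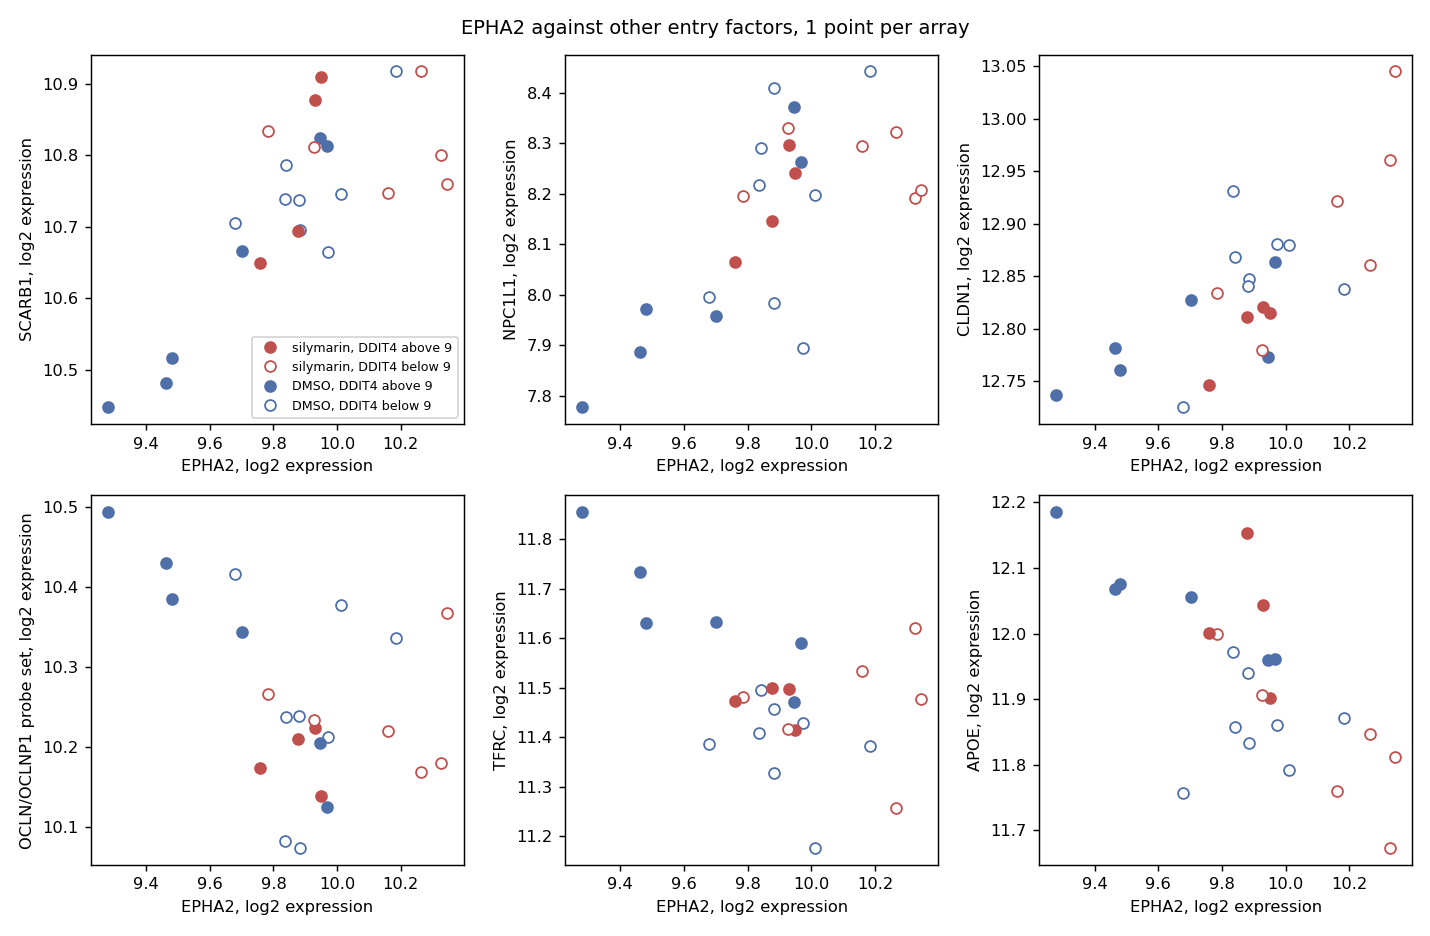
EPHA2 (x axis, log2 expression) against SCARB1, NPC1L1, CLDN1, OCLN/OCLNP1, TFRC and APOE (y axes, log2 expression), 1 point per array, red silymarin and blue DMSO, filled where DDIT4 is above 9. Among the filled points SCARB1, NPC1L1 and, with more scatter, CLDN1 are higher where EPHA2 is higher, and OCLN/OCLNP1, TFRC and APOE are lower.

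The same arrays differed in ASNS, the asparagine synthetase induced by amino acid stress, and in CXCL10, a chemokine induced by interferon. NPC1L1 and ASNS had an r of -0.962 (rho -0.976) across the 10 arrays with high DDIT4 and of -0.063 (rho -0.288) across the other 14. EPHA2 and CXCL10 had an r of 0.948 (rho 0.818) across the 10 and of 0.045 (rho 0.029) across the 14. CXCL10 was 4.57 on the fourth DMSO array at 8 h, where EPHA2 was 9.28, and 9.51 on the fifth DMSO array at 24 h, where EPHA2 was 9.83. TFRC and ASNS had an r of 0.775 (rho 0.818) across the 10 and of 0.651 (rho 0.451) across the 14, and so ran the same way in both DDIT4 ranges. EGFR and DDIT4 had an r of 0.768 (rho 0.867) across the 10 and of 0.517 (rho 0.459) across the 14. APOE and CXCL10 turned sign, with an r of -0.591 (rho -0.661) across the 10 and of 0.656 (rho 0.67) across the 14. Without the 3 DMSO arrays lowest in EPHA2, the r across arrays with high DDIT4 was 0.534 for TFRC and ASNS and -0.152 for APOE and CXCL10. It was -0.952 for NPC1L1 and ASNS, 0.87 for EPHA2 and CXCL10, and 0.878 for EGFR and DDIT4. The pairs named are some of those between the entry factors and DDIT4, ASNS, CHAC1 and CXCL10. APOE lay between 11.90 and 12.18 (median 12.05) on the arrays with high DDIT4 and between 11.67 and 12.00 (median 11.85) on those with low DDIT4. For EPHA2 the medians were 9.82 on the arrays with high DDIT4 and 9.95 on those with low DDIT4.

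**Figure D4:**
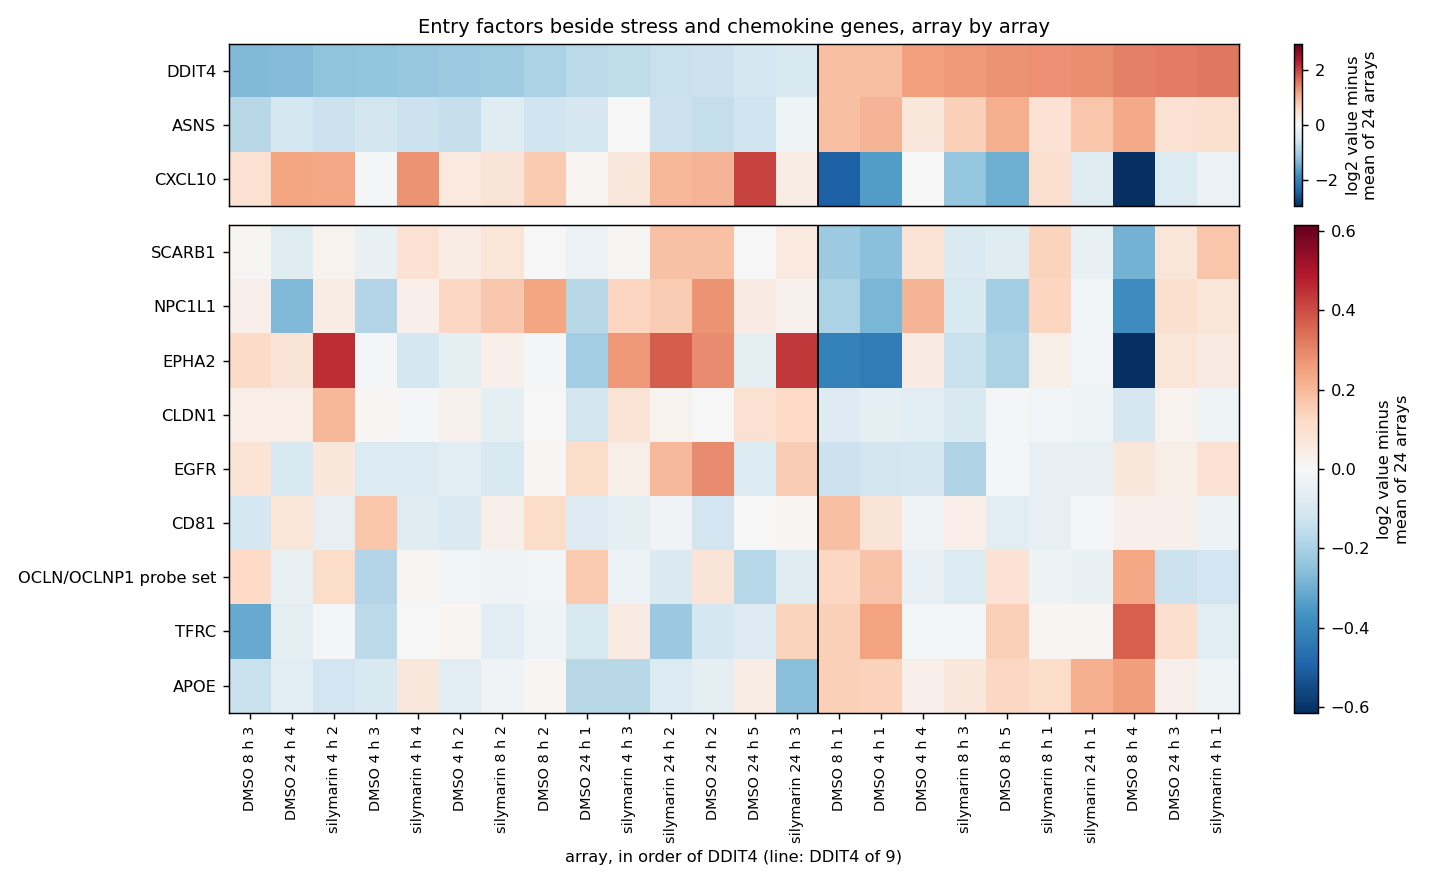
Each array's log2 value minus the mean of 24 arrays (colour) for DDIT4, ASNS and CXCL10 (upper rows) and the 9 entry factors (lower rows, a narrower colour scale), with arrays in order of DDIT4 and a line at a DDIT4 of 9. Right of the line, the arrays with the lowest EPHA2 also have low SCARB1, NPC1L1 and CXCL10 and high OCLN/OCLNP1, TFRC and APOE.

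For each entry factor, the genes most alike were those with the highest Pearson r over the 24 arrays, after the group means were taken away. For EPHA2 they were PLK2 (r = 0.959), NOSTRIN (0.939) and CCN2 (0.938). Within the DDIT4 ranges r was taken with group means left in, an unlike measure. There the same 3 had an r of 0.931, 0.89 and 0.963 on the arrays with high DDIT4. On those with low DDIT4 it was 0.967, 0.944 and 0.93. For SCARB1 they were RNLS (0.943), PDGFD (0.94) and PAFAH1B3 (0.916). For APOE they were GALT (0.941), MPV17 (0.924) and MAN2A2 (0.914), and for TFRC they were CLGN (0.91), GTF3C3 (0.892) and EPRS1 (0.889). The r over 24 arrays takes in differences between the DDIT4 ranges. Within the high and low ranges, SCARB1 and RNLS had an r of 0.99 and 0.748. APOE and GALT had 0.768 and 0.835 there, and TFRC and CLGN 0.931 and 0.79. The most alike genes were picked for a high r over the same arrays, so the values describe them only. The best r was 0.866 for EGFR (PARD6B), 0.858 for CD81 (CLNS1A), 0.853 for NPC1L1 (ASGR2), 0.815 for CLDN1 (TFPI) and 0.741 for OCLN/OCLNP1 (PIK3R1).

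Genes around the entry factors were read from 9 lists, in which 143 of 162 entries were measured. None of them passed the adjusted threshold in the 4 comparisons of silymarin with DMSO. An unadjusted p under 0.05 was held by 2.48% of all rows at 4 h, 3.93% at 8 h, 3.03% at 24 h and 2.83% in the average. Among 17 further attachment and entry genes the median difference averaged over the 3 times was -0.00069, against -0.0033 for all rows, and 1 gene, HRAS, a GTPase downstream of EGFR in entry, had an unadjusted p under 0.05 (0.084 lower with silymarin, SE 0.037), as 2.83% of all rows did. The 17 genes of clathrin endocytosis and the early endosome had a median of 0.0031 and none with an unadjusted p under 0.05 at any time. Of 18 tight junction genes, CLDN12, another claudin, was 0.17 lower with silymarin at 8 h (SE 0.065), where OCLN/OCLNP1 was also lower, and TJP1, the scaffold ZO-1, was 0.089 lower (SE 0.072). The median of the tight junction list at 8 h was -0.043, against -0.018 for all rows.

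Of 19 other tetraspanins, CD63, a late endosome tetraspanin, was 0.175 higher with silymarin at 4 h (SE 0.084), TSPAN1 was 0.21 higher at 24 h (SE 0.096), TSPAN14, named after its values were seen, was 0.13 higher at 24 h (SE 0.064), and TSPAN12, a part of the Norrin receptor complex, averaged 0.12 lower (SE 0.052). These were the members of the list with an unadjusted p under 0.05, 1 at 4 h, 2 at 24 h and 1 in the average. Of all rows, 2.48%, 3.03% and 2.83% had one in those comparisons. Of 15 genes of the ErbB family, its ligands and adaptors, BTC, the ligand betacellulin, was 0.17 lower at 24 h (SE 0.081). ERBB3 was 0.20 lower at 8 h (SE 0.099, limma unadjusted p = 0.0586), where EGFR was also lower. HBEGF, another ligand, was 0.23 higher at 8 h (SE 0.14). The median of the list at 8 h was 0.0086, against -0.018 for all rows. None of the 12 Eph A receptors and ephrins A had an unadjusted p under 0.05, and their median averaged over the 3 times was -0.018, while EPHA2 itself was 0.24 higher. Of 14 iron genes, none had an unadjusted p under 0.05, and TFR2, the liver transferrin receptor, averaged 0.13 higher (SE 0.067) beside a TFRC difference of -0.033.

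Of 16 sterol and lipoprotein genes, APOH was 0.46 higher with silymarin at 8 h (SE 0.17), a difference with an unadjusted p of 0.014 and an adjusted p of 0.99 in limma. APOH averaged 11.72 ± 0.22 with silymarin (SD, n = 3) and 11.26 ± 0.43 with DMSO (SD, n = 5) at 8 h. ABCA1, the cholesterol exporter, named after its values were seen, was 0.225 lower at 8 h (SE 0.108), so 2 of the 16 had an unadjusted p under 0.05 at 8 h, as 3.93% of all rows did. SREBF1, the regulator of lipid synthesis, was 0.20 higher at 24 h (SE 0.078). Among 15 host genes of HCV replication and assembly, PPIA, or cyclophilin A, was 0.215 higher at 8 h (SE 0.090), and the median of the list at that time was 0.072. The 9 entry factors themselves had a median difference of 0.087 at 4 h, of -0.027 at 8 h and of 0.03 at 24 h. The medians of all rows were -0.0051, -0.018 and 0.013.

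**Figure D5:**
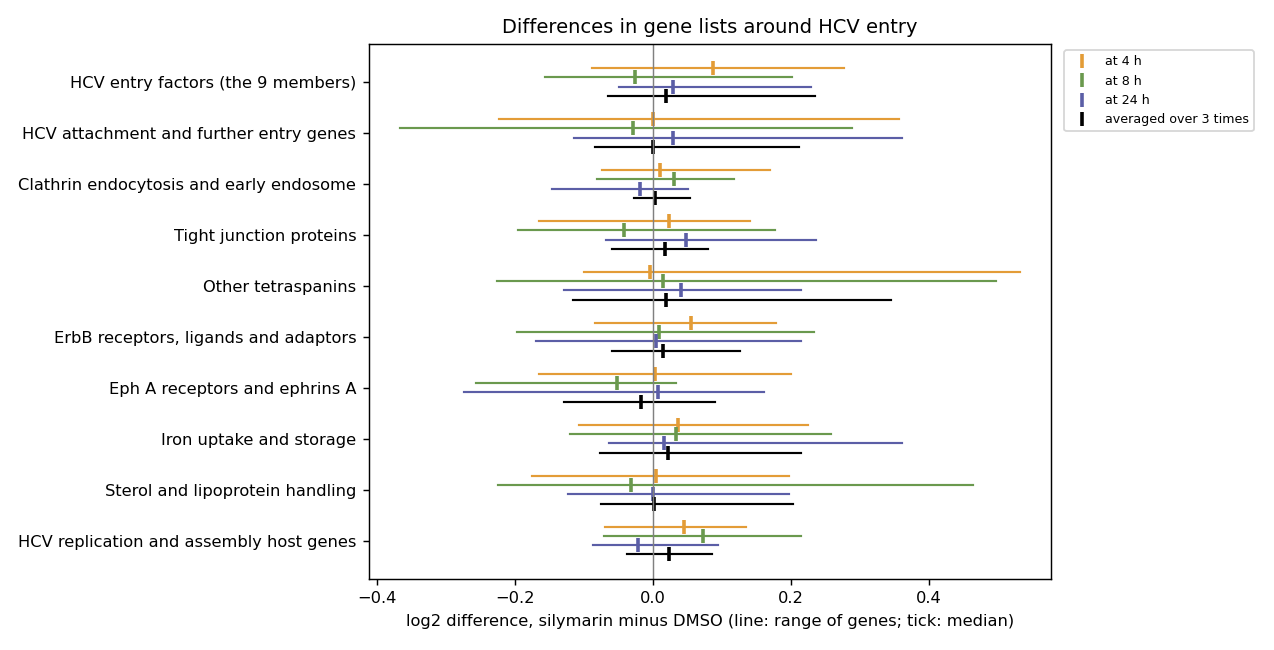
Log2 difference, silymarin minus DMSO (x axis), for the 9 entry factors and the 9 gene lists around them (y axis) at 4, 8 and 24 h and averaged over the 3 times. Lines give the range of a list's genes and ticks its median, and the medians of the 9 lists lie between -0.052 and 0.072.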

How the data were processed

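Per the labels, RNA of Huh7.5.1 cells was measured on the Affymetrix Human Gene 1.0 ST platform. The unit of the deposited values is log2 expression, and per the submitters' processing notes the authors used RMA and oligo, with versions not stated. RMA includes background correction, quantile normalization between arrays and a probe summary. The genome build is not given in the sources used here. Values were used as deposited. Of 28869 probe sets, 19302 had 1 gene symbol in the platform annotation, 1729 had several and 7838 were not listed. The highest-mean probe set of each gene gave 18274 genes, to which the shared OCLN/OCLNP1 probe set was added. The number of arrays limits the precision.

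One limma 3.58.1 model (R 4.3.3) with 6 group means was fitted to all 24 arrays (18 residual and 5.04 prior degrees of freedom), two-sided, with Benjamini-Hochberg adjustment over 18275 rows and a threshold of 0.05. It was tested on simulated data, made by shuffling each gene's deviations over arrays separately. The shuffling kept neither the DDIT4 ranges nor the correlation between genes, so that test does not cover them. Intervals are 95% intervals of that fit. Alternatives were other scalings, a filter on dim genes, averaged probe sets, variance trend, array weights, pairwise fits, a replicate block, a threshold of 0.01 and each array left out. Setting aside the 10 arrays with high DDIT4 was chosen after seeing the data. No 2 arrays were duplicates (highest correlation 0.99808). The members, lists, markers and tests were chosen with earlier results of these data known. Named genes were the 9 members, DDIT4, ASNS, CHAC1 and CXCL10, in each list the 2 genes with the smallest p in the average and the 1 with the smallest p at each time, and for each member the 3 genes most correlated with it among genes at or above the median level. Promoter windows came from RefSeq (GRCh38.p14), which matched 7 of the 9 members, and the 50 bases after each start site were left off. The labels do not say whether array numbers pair samples, and the main model did not pair them. Of 10 same-numbered pairs, 4 had deviations correlated above 0.1 (range -0.137 to 0.426). Number 2 was above 0.1 at 4, 8 and 24 h (0.112, 0.426 and 0.422). The 4 pairs above 0.1 were those in which both arrays had low DDIT4, and the part of DDIT4 in these values was not tested. Differently numbered pairs were not compared, so these values do not settle the pairing.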

Additional observations from a re-analysis of the deposited data

Results flagged for a closer look

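TFRC on the third DMSO array at 24 h was 11.59, apart from the other 4 DMSO arrays at that time, which lay between 11.38 and 11.43. It was the only array set apart in this way (by Dixon's test) among 36 combinations of a gene and a group of 4 or 5 arrays, of which chance gives about 1 in 20. DDIT4 on that array was 10.30, in its high range, against 8.28 or less on the other 4 DMSO arrays at 24 h, and ASNS was 10.60, against 9.66 or less. Their part in the TFRC value was not tested.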

How the results depend on the processing

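Under 34 settings, 255 of 256 recomputed counts of passing rows stayed at 0, and none of 783 recomputed differences of the entry factors passed. With quantile normalization repeated, 1 row passed in the comparison of silymarin with DMSO at 24 h, and the cause was not tested. The EPHA2 difference averaged over the 3 times stayed above 0 in every setting run, from 0.20 without the first DMSO array at 4 h to 0.28 without the first silymarin array at 24 h among the fits that left out 1 array. With the replicate number as a block it was 0.20, and the block changed no call. SCARB1 averaged between 0.079 and 0.12 higher in the fits without 1 array, and its difference at 24 h was -0.021 without the second silymarin array. Small differences turned sign in some settings: that of EGFR in the average was -0.0077 with the replicate block, and that of APOE at 8 h was 0.017 without the fourth DMSO array and 0.019 with the block. Rescaling moved the median difference of all rows by less than 0.02. With 3 to 5 arrays a group, differences of the size seen here for EPHA2 lie close to the spread between arrays.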
